A study of Mus musculus with 8 samples.

Results

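Surface ectoderm is the outer epithelium of the embryo at E8.5, the layer that gives the epidermis and, from its head part, the placodes of the ear, nose and lens. Trp63 encodes p63, the transcription factor that founds the epidermal lineage, and Grhl3, Tfap2a and Dlx5 encode transcription factors of early ectoderm, while Wnt6 is a ligand of this epithelium. TET enzymes oxidise methylated cytosines and so open the way to DNA demethylation, and Tet-TKO cells lack Tet1, Tet2 and Tet3. The question here was what Tet-TKO cells express once they stand in the surface ectoderm of a chimaera beside wild-type cells.

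Surface ectoderm cells were chosen by a rule on their own UMI counts (unique molecular identifiers, each 1 captured RNA molecule), at least 1 UMI of Epcam, at least 1 UMI of Tfap2a, and at least 1 UMI of at least 2 of Trp63, Wnt6, Grhl3 and Dlx5. Cells selected on these 6 genes cannot test them, so their levels are given as a description. The rule found 979 of the 37211 cells kept at E8.5, 621 of 19913 Tet-TKO cells and 358 of 17298 WT host cells. Chimaeras were made by injecting Tet-TKO ES cells of a mixed C57BL/6J-129Sv background, marked by a CAG-driven H2B-tdTomato, into C57BL/6J blastocysts that were carried by CD1 recipients. Embryos were pooled, dissociated and sorted into tdTomato+ cells (Tet-TKO, 4 libraries at E8.5) and tdTomato- cells (WT host, 2 libraries at E8.5), with no libraries of injected wild-type ES cells used here, so that genotype, strain, ES cell origin and the label cannot be told apart. The Tet-TKO cells come from 1 ES line, and the labels do not tie libraries to separate litters, so that p-values measure the spread between these libraries. At E7.5, with 1 library of each genotype, the rule found 41 Tet-TKO and 44 WT host cells, too few to describe.

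The Tet-TKO libraries held 255, 197, 111 and 58 surface ectoderm cells and the WT host libraries held 197 and 161. Depth differed within the Tet-TKO group. The median surface ectoderm cell had 19409 and 13264 UMIs in Tet-TKO libraries 1 and 2, 44876 and 78685.5 UMIs in libraries 3 and 4, and 16387 and 14352 UMIs in the WT host libraries. Summed over these cells, library totals ran from 2536872 to 5270236 UMIs. Counts of libraries 1 and 2 differed by 1.97 times the sampling noise (chi-square over genes, per degree of freedom), libraries 3 and 4 by 3.44 times and the WT host libraries by 2.52 times, but libraries of different pairs by 12.1 to 18.2 times. For the gene lists, calls with each pair of Tet-TKO libraries alone are therefore also counted. No 2 libraries shared over 0.434% of the barcodes of the smaller library.

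In the Tet-TKO libraries 74.9%, 71.1%, 94.6% and 98.3% of surface ectoderm cells held a tdTomato UMI, against 1.52% and 1.86% in the WT host libraries. Tet1 was at 11.6, 12.99, 25.0 and 29.0 CPM (a gene's UMIs summed over the cells of a library, per 1000000 UMIs of those cells) in Tet-TKO cells and at 34.6 and 31.9 CPM in WT host cells, and was called lower with libraries 1 and 2 alone (log2 fold change -1.39) and not with libraries 3 and 4 (-0.36). Tet2 (3.16 to 8.92 against 5.39 and 3.55 CPM) and Tet3 (23.0 to 37.0 against 21.8 and 21.7 CPM) overlapped or lay higher in Tet-TKO cells. Counts at the 3′ end need not cover a deleted exon, so these levels do not check the knockout.

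The genes that chose the cells are given as a description. Epcam, the adhesion molecule of early epithelia, stood at 524 to 599 CPM in Tet-TKO and at 508 and 551 CPM in WT host surface ectoderm, and Wnt6 at 262 to 355 against 267 and 330 CPM. Trp63 was at 17.9, 23.9, 27.7 and 31.2 CPM in Tet-TKO and at 20.7 and 29.96 CPM in WT host cells. Grhl3 was at 20.9, 28.4, 16.1 and 9.75 CPM against 34.9 and 30.4 CPM, and Dlx5 at 73.9, 91.7, 47.2 and 34.5 CPM against 81.4 and 99.7 CPM, with the deeper libraries 3 and 4 lowest for both. Wnt6 and Dlx5 carried most of the membership. Of the surface ectoderm cells of a library, 92.9% to 95.4% held a Wnt6 UMI and 73.3% to 80.0% a Dlx5 UMI, whereas 25.1% to 63.8% held a Trp63 UMI and 28.4% to 38.7% a Grhl3 UMI. Among cells with both Epcam and Tfap2a, 13 to 218 cells per library held only 1 of the 4 marker genes and fell just outside the rule, 27 to 189 held 2 and fell just inside it, 23 to 58 held 3 and 7 to 12 held all 4.

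The label was checked on genes that the rule did not use. All 15 surface ectoderm genes outside the rule that were examined had a higher mean level in these cells than in the other cells of the same libraries. Grhl2, a partner of Grhl3 in epithelial gene control, was at 27.3 CPM against 2.58 CPM, Esrp1, a splicing factor of epithelia, at 50.7 against 5.51 CPM, Tfap2c at 44.1 against 5.26 CPM and Dlx3 at 17.8 against 2.29 CPM. Krt8 and Krt18, the keratins of simple epithelia, were at 904 against 384 CPM and at 936 against 365 CPM. The narrowest contrast was that of Bmp7, at 35.8 against 18.0 CPM. Tfap2c, Dlx3 and Dlx6 were also low in endoderm cells of the same embryos (Tfap2c 2.04 and 0.540 CPM in Tet-TKO and WT host endoderm), while Krt8, Krt18, Cldn6, Cldn7 and Cdh1 are shared with endoderm. Cells that pass the surface ectoderm rule were left out of these endoderm cells.

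**Figure D1:**
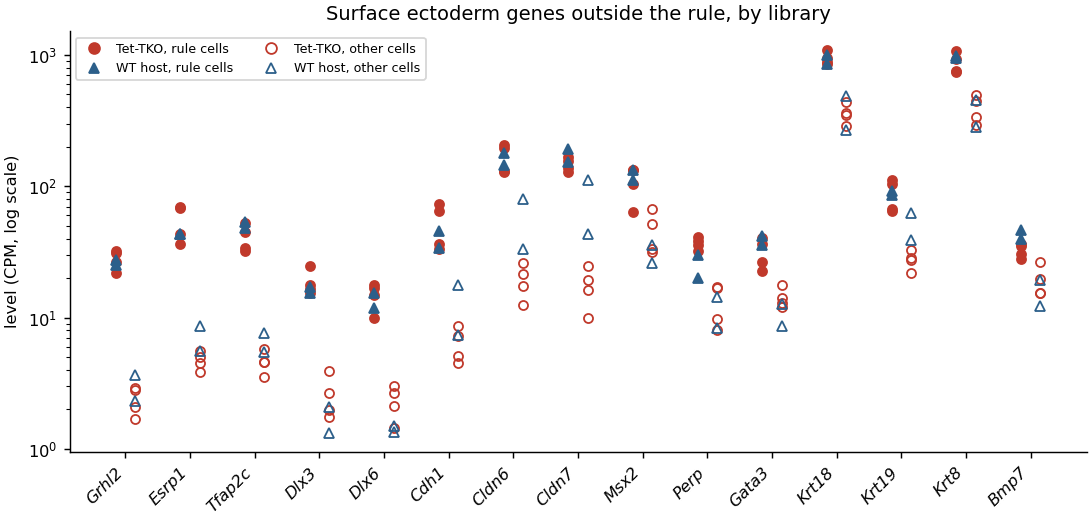
Levels of the 15 surface ectoderm genes outside the rule, in CPM on a log scale, 1 point per E8.5 library, with filled symbols for surface ectoderm cells and open symbols for the other cells of the same library. Krt8 and Krt18 were the highest in surface ectoderm, and Grhl2 stood furthest above the other cells, at 27.3 against 2.58 CPM.

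None of these 15 genes passed the test between genotypes (edgeR, beside 0.197% higher and 0.232% lower of all genes), and 1 was higher and 1 lower at an unadjusted p of 0.05, beside 5.22% and 5.47% of all genes. Summed counts per library were compared by the quasi-likelihood test of edgeR, and calls needed an adjusted p below 0.01 with at least a 2-fold difference (1 on the log2 scale). Their median log2 fold change, Tet-TKO over WT host, was 0.04, beside 0.01 over all genes tested. The largest was that of Perp, a desmosomal membrane protein gene (0.58 ± 0.19 SE, adjusted p = 0.297). Cdh1, the epithelial cadherin, was at 36.3, 33.4, 64.5 and 73.3 CPM in Tet-TKO and at 33.7 and 45.7 CPM in WT host cells, its 2 higher values in libraries 3 and 4. Krt8 was at 742 to 1078 CPM against 980 and 939 CPM. The genotypes overlapped for both genes.

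Markers of other cell types were summed over lists of 5 genes each, 4 for gut endoderm. No list covered amnion, and amnion cells among those chosen were not tested for. Hand1, also an amnion gene, is given below with the trophoblast genes. The summed level of the neural crest markers was 33.2 to 71.7 CPM in Tet-TKO and 57.3 to 81.6 CPM in WT host cells, most of it Sox9, and that of the neurectoderm markers was 40.3 to 61.8 against 69.8 to 75.4 CPM, most of it Sox2. Sox10 and Foxd3, the defining neural crest genes, were at 3.94 CPM at most. Gut endoderm markers summed to 12.9 to 23.4 against 5.12 to 13.9 CPM, extraembryonic ectoderm markers to 10.2 to 13.9 against 18.1 to 19.9 CPM, endothelial markers to 2.38 to 14.0 against 7.88 to 13.6 CPM and mesoderm markers to 44.0 to 80.2 against 43.4 to 56.0 CPM, with Twist1 alone at 22.1 to 66.1 CPM. In WT host cells yolk sac endoderm markers summed to 139 and 333 CPM against 2.09 to 4.33 CPM in Tet-TKO cells, and erythroid markers to 4564 and 1733 CPM against 5.20 to 773 CPM. With every cell thinned to 5000 UMIs, 52.8% and 88.6% of WT host surface ectoderm cells held UMIs of at least 2 erythroid genes, against 0% to 2.58% of Tet-TKO cells. On all UMIs, 23.9%, 15.2%, 35.1% and 56.9% of Tet-TKO and 27.4% and 22.4% of WT host cells held at least 2 genes of a list other than erythroid or neurectoderm. The alternative without cells that hold markers of other types left out only these cells, so erythroid markers alone did not remove a cell. It kept 25 of the 58 cells of Tet-TKO library 4. The shares on all UMIs were highest in the deeper Tet-TKO libraries 3 and 4. With the same cells, chosen on all UMIs, thinned to 5000 UMIs, at least 2 genes of any 1 of these lists were found in few cells. The share per list was at most 1.96% in a Tet-TKO library (mesoderm, library 1) and 4.06% in a WT host library (yolk sac endoderm, library 1).

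The share of surface ectoderm cells depended on depth. With all UMIs it was 3.62%, 2.06%, 4.82% and 5.73% of the Tet-TKO cells and 2.38% and 1.78% of the WT host cells. With every cell thinned to 5000 UMIs and the rule applied again, it was 0.370%, 0.531%, 0.224% and 0.434% in the Tet-TKO and 0.415% and 0.481% in the WT host libraries. The groups overlapped, and the means of 0.390% ± 0.129 (SD, n = 4) and 0.448% ± 0.0466 (SD, n = 2) differed by -0.0582 percentage points (exact permutation test over libraries, two-sided, p = 0.8, taken as 2 times the smaller tail, so that 0.133 is the smallest p that 4 against 2 libraries allow). After thinning the deep libraries 3 and 4 held 5 and 4 such cells, and the exact 95% interval of library 4 ran from 0.118% to 1.11%, counting error only. In erythroid cells of the same depth, which should lack these genes, 0% to 5.74% of the cells of a library held an Epcam UMI, with both WT host libraries (5.74% and 3.65%) above the Tet-TKO libraries, at most 0.997% held a Tfap2a UMI and at most 1.23% a Wnt6 UMI, and at most 0.0831% passed the whole rule. In neurectoderm cells Epcam was found in 3.14% to 14.3% of cells, Tfap2a in 0.976% to 3.34%, Wnt6 in 0.289% to 2.38% and Dlx5 in 0.524% to 3.06%. Cells that pass the surface ectoderm rule on all UMIs were left out of the neurectoderm cells, which can lower these shares. With erythroid cells left out of the total, 3 of 4 Tet-TKO libraries lay below both WT host libraries (0.378%, 0.551%, 0.231% and 0.444% against 0.514% and 0.643%, exact permutation p = 0.267). Cells with at least 3 of the 4 marker genes after thinning were fewer in all 4 Tet-TKO libraries (mean 0.0259% against 0.0926%, exact permutation p = 0.133), at 0.0592%, 0.0443%, 0% and 0% against 0.0649% and 0.120%, a count of 23 cells in all. The upper ends of the exact 95% intervals at 0 cells were 0.165% for library 3 and 0.400% for library 4.

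**Figure D2:**
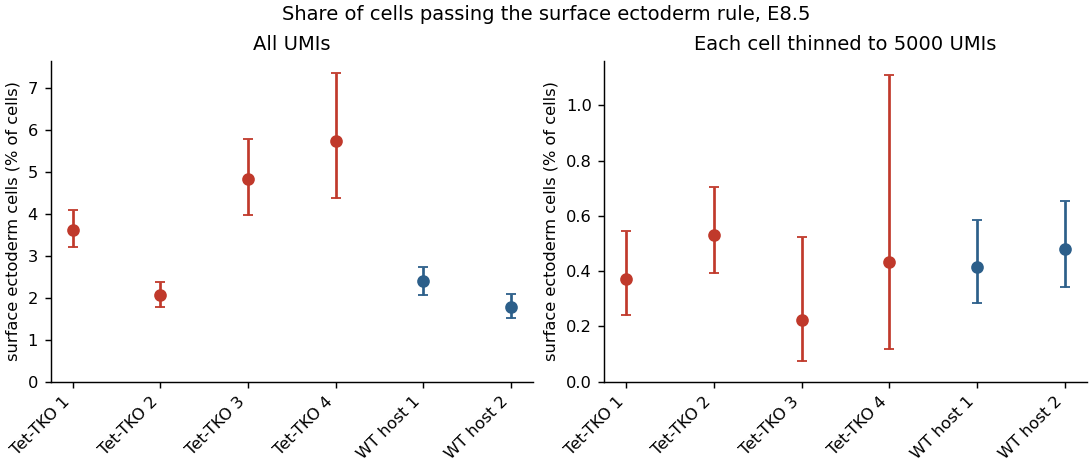
Percentage of E8.5 cells that pass the surface ectoderm rule, 1 point per library with its exact 95% binomial interval, on all UMIs (left) and with every cell thinned to 5000 UMIs (right). Tet-TKO libraries 3 and 4, at 4.82% and 5.73%, stood above the WT host libraries on all UMIs and at 0.224% and 0.434% after thinning.

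Hox genes, which mark position along the body axis, were found in surface ectoderm cells of both genotypes. With each cell thinned to 5000 UMIs, 45.05% to 60.3% of Tet-TKO and 46.2% and 60.4% of WT host surface ectoderm cells held a UMI of Hox genes of paralogue groups 1 to 5, which mark the hindbrain level and trunk. Hox genes of groups 6 to 13, which mark more posterior levels, were found in 31.4%, 45.9%, 29.7% and 41.4% of Tet-TKO and in 32.0% and 39.9% of WT host cells. Erythroid cells at the same depth gave 0% to 8.28% for either Hox group. The surface ectoderm cells here were chosen by the rule on all UMIs and thinned afterwards, and the rule was not applied again. After thinning, 40.4%, 49.5%, 33.3% and 27.6% of Tet-TKO and 46.7% and 47.5% of WT host cells still held a Tfap2a UMI. Depth thus still bears on which cells were chosen.

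Of 7 regional gene groups compared, 5 are given here, and for the otic genes and Isl1 the libraries of the genotypes did not overlap. As for the Hox genes, cells were chosen on all UMIs and thinned afterwards, so that the choice of cells was not matched for depth. Pax2 or Pax8, transcription factors of the otic placode, were found in 1.96%, 2.06%, 3.604% and 3.45% of Tet-TKO cells (5 of 255, 4 of 194, 4 of 111 and 2 of 58 cells) and in 9.64% and 6.96% of WT host cells (19 of 197 and 11 of 158 cells). All 4 Tet-TKO libraries lay below both WT host libraries, and all lay above the erythroid background of 0% to 0.623%. The difference of means was -5.53 percentage points (exact permutation test, two-sided as above, p = 0.133, the smallest it allows, and 0.467 after adjustment over the 7 groups). Isl1, a LIM homeobox gene of pharyngeal and placodal ectoderm, was found in 10.2%, 13.4%, 11.7% and 10.3% of Tet-TKO and in 7.11% and 8.23% of WT host cells, higher in all 4 Tet-TKO libraries by 3.75 percentage points (exact permutation p = 0.133, adjusted 0.467). Basal keratins (Krt5, Krt14 or Krt15, 8.24% ± 2.89 against 6.15% ± 0.638, SD, n = 4 and 2) overlapped, as did both Hox groups. On all UMIs the otic groups overlapped, at 8.24%, 11.7%, 23.4% and 22.4% against 16.8% and 14.3%, the higher Tet-TKO values in the deeper libraries. Fewer cells that use these genes, fewer cells of that region among those chosen and no difference between genotypes cannot be told apart.

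**Figure D3:**
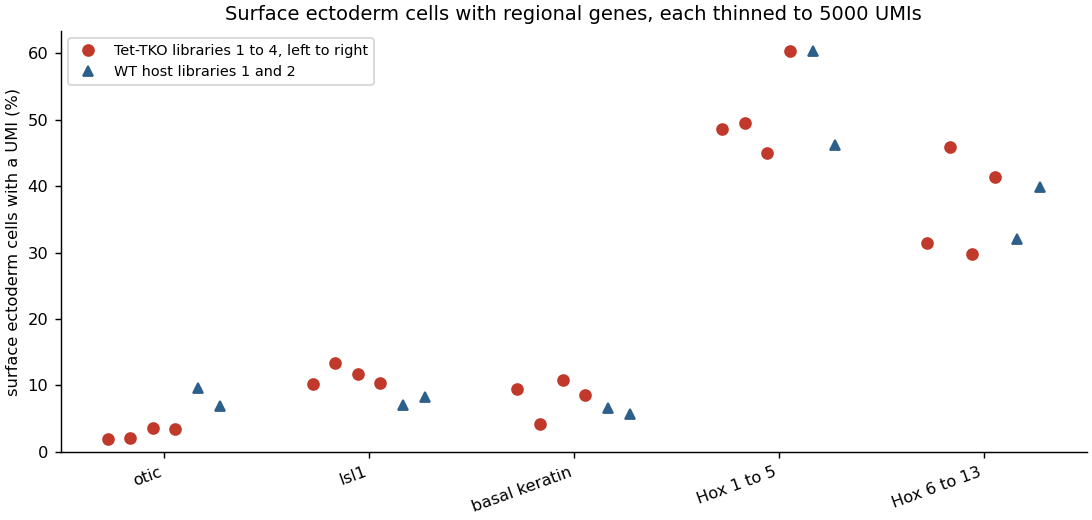
Percentage of surface ectoderm cells with a UMI of each regional gene group, cells chosen on all UMIs and then thinned to 5000 UMIs, Tet-TKO libraries as circles and WT host libraries as triangles. For the otic genes the Tet-TKO libraries lay at 1.96% to 3.604%, below the WT host libraries at 6.96% and 9.64%.

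Few genes were called by the main test, and more by some alternatives (120 higher and 168 lower with the replicate number as a block). Of 11659 genes tested beside the 6 rule genes, 23 were higher in Tet-TKO surface ectoderm (0.197%) and 27 were lower (0.232%), 50 in all (0.429%). With WT host library 1 left out 4 genes were called higher and 8 lower, and with library 2 left out the counts were also 4 and 8. Against the WT host, Tet-TKO libraries 1 and 2 alone gave 89 higher (0.837%) and 111 lower genes (1.04%), and libraries 3 and 4 alone gave 257 (2.27%) and 223 (1.97%), more in each case than the 4 together. Both comparisons use the same WT host libraries, and a call with a single pair does not include the difference between the pairs in its spread.

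Crabp1, which binds retinoic acid in the cytoplasm, fell in Tet-TKO surface ectoderm. It stood at 219, 194, 242 and 301 CPM in Tet-TKO and at 641 and 684 CPM in WT host surface ectoderm, means of 239 ± 45.9 (SD, n = 4) and 662 ± 30.4 (SD, n = 2). All 4 Tet-TKO libraries lay far below both WT host libraries. The log2 fold change was -1.47 ± 0.15 SE (edgeR, adjusted p = 0.00177), -1.61 with Tet-TKO libraries 1 and 2 alone and -1.34 with libraries 3 and 4 alone. The adjusted p was 0.0403 and 0.0540 without WT host library 1 or 2, at log2 fold changes of -1.48 and -1.44, and 0.0137 with the rule applied at 10000 UMIs. Crabp1 lies on chromosome 9 from 54764748 to 54773110 (mm10, GENCODE M21). The 250 bases before its start (RefSeq, GRCm38.p6, chr9:54764498-54764747, plus strand) are shown because it is the abundant developmental gene that differed, with CG dinucleotides, the sites of methylation, in capitals.
Crabp1: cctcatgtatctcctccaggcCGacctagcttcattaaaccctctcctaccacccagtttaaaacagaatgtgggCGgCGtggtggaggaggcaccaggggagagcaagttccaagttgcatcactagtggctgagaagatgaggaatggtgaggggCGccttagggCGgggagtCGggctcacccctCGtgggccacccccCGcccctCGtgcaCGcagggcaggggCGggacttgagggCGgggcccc
This stretch holds 12 CG dinucleotides, and 33.8% of 27025 promoters in the table hold at least as many over the same length. Methylation was not measured in these libraries.

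Most other retinoic acid genes did not pass. Of the 13 tested, 0 were called higher and 2 lower, Crabp1 and Rbp4, with a median log2 fold change of -0.13, beside 0.197% higher and 0.232% lower of all genes. With each Tet-TKO pair alone 1 was lower, Crabp1, and Rbp4 was not called (adjusted p = 0.277 and 0.113). Crabp2, the second cellular binding protein, was at 224, 252, 355 and 441 CPM in Tet-TKO and 353 and 294 CPM in WT host cells (log2 fold change -0.03, adjusted p = 0.969). Rbp4, which carries retinol in blood, belongs with the yolk sac genes below.

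In endoderm cells of the same libraries (Epcam with at least 2 of Foxa1, Foxa2 and Sox17, 1432 cells) Crabp1 averaged 64.4 CPM in Tet-TKO and 78.9 CPM in WT host cells. In neurectoderm cells (Sox2 with at least 2 of Sox1, Pax6, Hes5 and Rfx4, 2512 cells) it averaged 1247 and 1030 CPM. Its log2 fold changes there were -0.30 and 0.31, and the test of the difference from surface ectoderm did not pass (adjusted p = 0.625 against endoderm and 0.615 against neurectoderm). Cells that pass the surface ectoderm rule were left out of both populations.

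Other lower genes had various roles. Cox4i2, a subunit of cytochrome c oxidase used at low oxygen, was at 20.7, 17.2, 13.1 and 12.8 CPM against 87.1 and 95.4 CPM (log2 fold change -2.50 ± 0.22 SE, adjusted p = 0.00104). Bok, a member of the Bcl2 family of cell death regulators, was at 5.51, 3.86, 5.69 and 7.37 CPM against 19.3 and 20.9 CPM (-1.81 ± 0.24 SE, adjusted p = 0.00833). For both, all 4 Tet-TKO libraries lay below both WT host libraries. Without WT host library 1 or 2 the adjusted p was 0.0234 and 0.0347 for Cox4i2 and 0.127 and 0.144 for Bok, and Cox4i2 kept its call in the other alternatives that tested it. Bok also lost it without Tet-TKO library 1, 2 or 3 (0.0141 to 0.0255), with libraries 1 and 2 and libraries 3 and 4 summed (0.0249), with the rule applied at 10000 UMIs (0.0440), with at least 3 of the 4 marker genes (0.0786) and without cells that hold markers of other types (erythroid and neurectoderm not counted, 0.0125). Hist1h4i, a histone H4 gene, was at 11.4 to 20.2 CPM against 54.5 and 72.5 CPM (-2.01, adjusted p = 0.00255), and Ldoc1 at 0.190 to 2.09 against 19.9 and 24.0 CPM (-4.25, adjusted p = 0.00290). Among the called genes outside the naming rule, chosen after their values were seen, Gstm5, a glutathione transferase, stood at 34.03 to 39.9 against 101 and 93.0 CPM (-1.37), Cmtm8 at 26.6 to 39.0 against 73.2 and 85.1 CPM (-1.24), and Sult2b1, the sulphotransferase of cholesterol known from epidermis, at 1.73 to 3.80 against 16.4 and 16.6 CPM (-2.66). Each of the 5 lost its call without either WT host library and in at most 6 further alternatives, and the highest adjusted p was 0.0639 for Hist1h4i and for Ldoc1, 0.271 for Gstm5, 0.146 for Cmtm8 and 0.121 for Sult2b1. With the rule applied at 5000 UMIs, where Tet-TKO libraries 3 and 4 were left out, the log2 fold change of Gstm5 was -0.65, under the 2-fold threshold, and that of Hist1h4i was -3.02. Ldoc1 ranged from -5.14 to -3.56 over the alternatives.

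Bok differed more between genotypes in surface ectoderm than in endoderm. It averaged 14.9 and 15.1 CPM in Tet-TKO and WT host endoderm, a log2 fold change of -0.04, and the difference of log2 fold changes was -1.79 ± 0.31 SE (edgeR interaction test, adjusted p = 0.00379). Cox4i2 averaged 8.33 and 23.9 CPM in endoderm, and its difference of -0.99 ± 0.21 SE did not pass (adjusted p = 0.0133). The call for Cox4i2 depends on how endoderm is defined, since under the planned definition, which used 1 further gene, it passed (-1.05 ± 0.22 SE, adjusted p = 0.00888), as did Bok. Yolk sac endoderm markers differed between the endoderm cells of the genotypes. Ttr averaged 182 CPM in Tet-TKO and 3663 CPM in WT host endoderm, and Apoa1 averaged 48.1 and 1929 CPM. Whether this mix of endoderm cells enters the differences from surface ectoderm was not tested. Of 12294 genes tested, 0.96% had a higher and 0.0976% a lower genotype fold in surface ectoderm than in endoderm, past an adjusted p of 0.01 and a log2 difference of 1. Against neurectoderm neither Cox4i2 nor Bok passed (adjusted p = 0.498 and 0.139), and of 13096 genes 1 passed as higher (0.00764%) and 0 (0%) as lower by edgeR, 401 (3.06%) and 577 (4.41%) at an unadjusted p of 0.05. The gene was Crip1, chosen after its values were seen, whose difference was 1.72 (adjusted p = 0.00197). It averaged 4.67 CPM in Tet-TKO and 18.4 CPM in WT host neurectoderm and stood at 13.2 to 32.7 against 38.6 and 21.3 CPM in surface ectoderm. Among the 50 genes called in surface ectoderm, 1 differed from endoderm at an adjusted p of 0.01, the lower gene Bok (2 under the planned definition of endoderm, Bok and Cox4i2), and 0 from neurectoderm, beside 1.62% and 0.0305% of all genes that did so with no minimum fold.

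**Figure D4:**
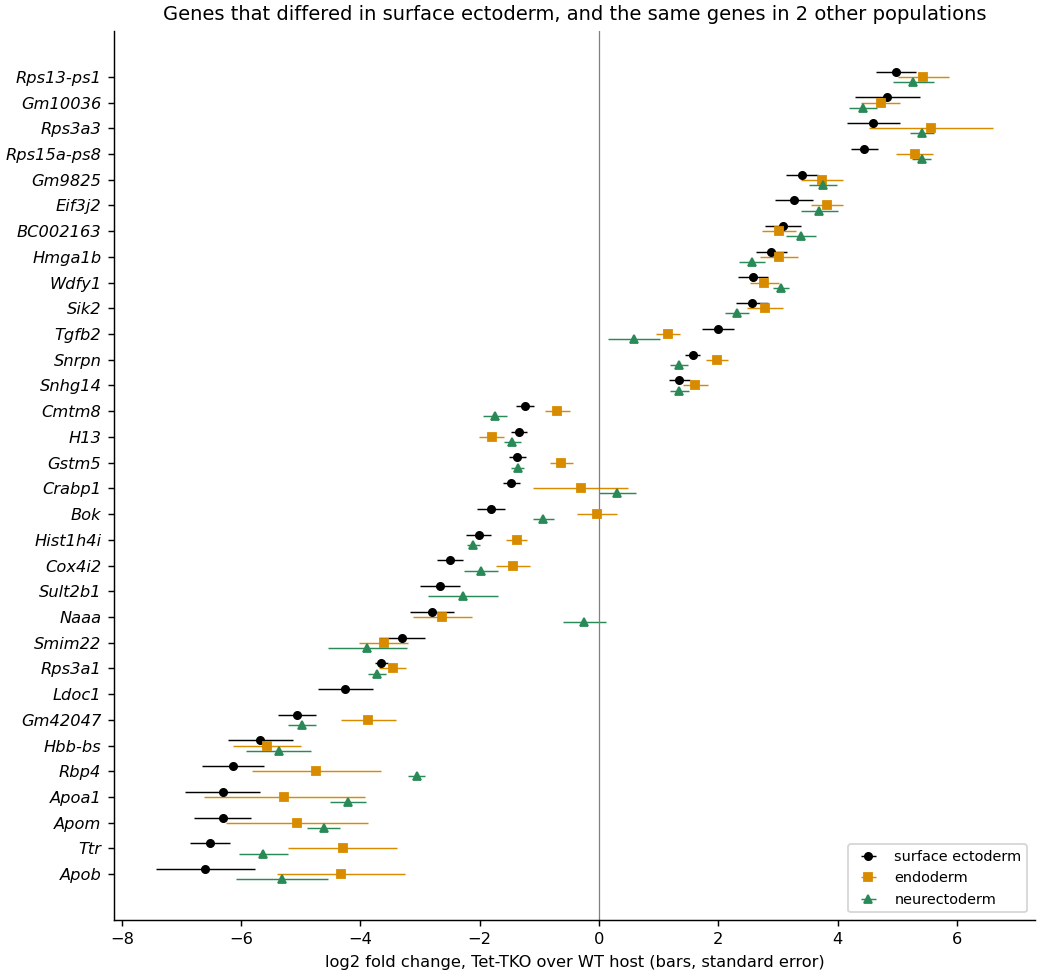
Log2 fold changes, Tet-TKO over WT host, with standard errors, of the named genes called in surface ectoderm, in surface ectoderm (circles), endoderm (squares) and neurectoderm (triangles). Bok lay at -1.81 in surface ectoderm and -0.04 in endoderm, whereas Snrpn lay at 1.57, 1.98 and 1.34.

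Imprinted genes, which are expressed from the allele of 1 parent under the control of DNA methylation, held 1 call in each direction among 35 tested, beside 0.197% higher and 0.232% lower of all genes. Snrpn, a splicing protein gene of the imprinted cluster on chromosome 7 (59982495 to 60140219), was at 192, 184, 195 and 224 CPM in Tet-TKO and at 67.8 and 66.2 CPM in WT host cells (log2 fold change 1.57 ± 0.12 SE, adjusted p = 0.000553). Snhg14, the long non-coding RNA of the same cluster, chosen after its values were seen, rose (53.2, 54.1, 45.5 and 60.2 against 22.1 and 19.7 CPM, log2 fold change 1.35, adjusted p = 0.00847). H13, a signal peptide peptidase gene on chromosome 2, fell from 63.0 and 61.9 CPM in WT host to 22.2, 23.9, 26.4 and 25.6 CPM in Tet-TKO cells (-1.34 ± 0.13 SE, adjusted p = 0.00176). For each of these genes the groups did not overlap. The log2 fold change in endoderm and neurectoderm was 1.98 and 1.34 for Snrpn and -1.80 and -1.45 for H13. Without WT host library 1 or 2 the adjusted p rose to 0.0234 and 0.0347 for Snrpn, to 0.0499 and 0.0516 for H13 and to 0.121 and 0.185 for Snhg14. Snrpn kept its call in the other alternatives that tested it. H13 also lost it with libraries 1 and 2 and libraries 3 and 4 summed (0.0153), with the rule applied at 10000 UMIs (0.0228) and with at least 3 of the 4 marker genes (0.0260). Snhg14 lost it in these 3 alternatives too (0.0239, 0.0503 and 0.0375), at 5000 UMIs (0.0301), without Tet-TKO library 1, 2 or 4 (0.0132 to 0.0189), without cells that hold markers of other types (erythroid and neurectoderm not counted, 0.0125) and without doublets (0.0122).

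Some other imprinted genes, chosen after their values were seen, gave larger p-values. Zdbf2 was at 68.8, 54.4, 102 and 117 CPM against 31.5 and 31.9 CPM (1.44, adjusted p = 0.0553; 1.05 in libraries 1 and 2 alone and 1.74 in libraries 3 and 4 alone, both called). Asb4 was at 0.433 to 2.11 against 8.79 and 7.88 CPM (-3.06, adjusted p = 0.0189, called with each pair alone). At an unadjusted p of 0.05, 11 imprinted genes were higher and 5 lower, beside 5.22% and 5.47% of all genes, 4 were called higher and 3 lower with libraries 1 and 2 alone (0.837% and 1.04% of all genes) and 2 higher and 2 lower with libraries 3 and 4 alone (2.27% and 1.97%), and their median log2 fold change was 0.16. Gnas (702 to 845 against 711 and 758 CPM) and Mest (591 to 804 against 593 and 743 CPM) overlapped between genotypes.

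Tgfb2, a TGF-beta ligand of developing epithelia and heart, rose in Tet-TKO surface ectoderm. It was at 43.1, 37.9, 27.7 and 45.5 CPM against 9.36 and 10.2 CPM (log2 fold change 1.99 ± 0.27 SE, adjusted p = 0.00933), with every Tet-TKO library above both WT host libraries. It was outside the naming rule and was chosen after its values were seen. The adjusted p was 0.194 and 0.162 without WT host library 1 or 2, 0.149 with the rule applied at 10000 UMIs, 0.0259 with at least 3 of the 4 marker genes (log2 fold change 2.62) and 0.0131 to 0.0167 without Tet-TKO library 1, 2 or 4. With the rule applied at 5000 UMIs the log2 fold change was 2.999 (adjusted p = 0.00344). In endoderm it averaged 86.1 and 38.4 CPM, a log2 fold change of 1.16, and the difference from surface ectoderm did not pass (adjusted p = 0.376).

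**Figure D5:**
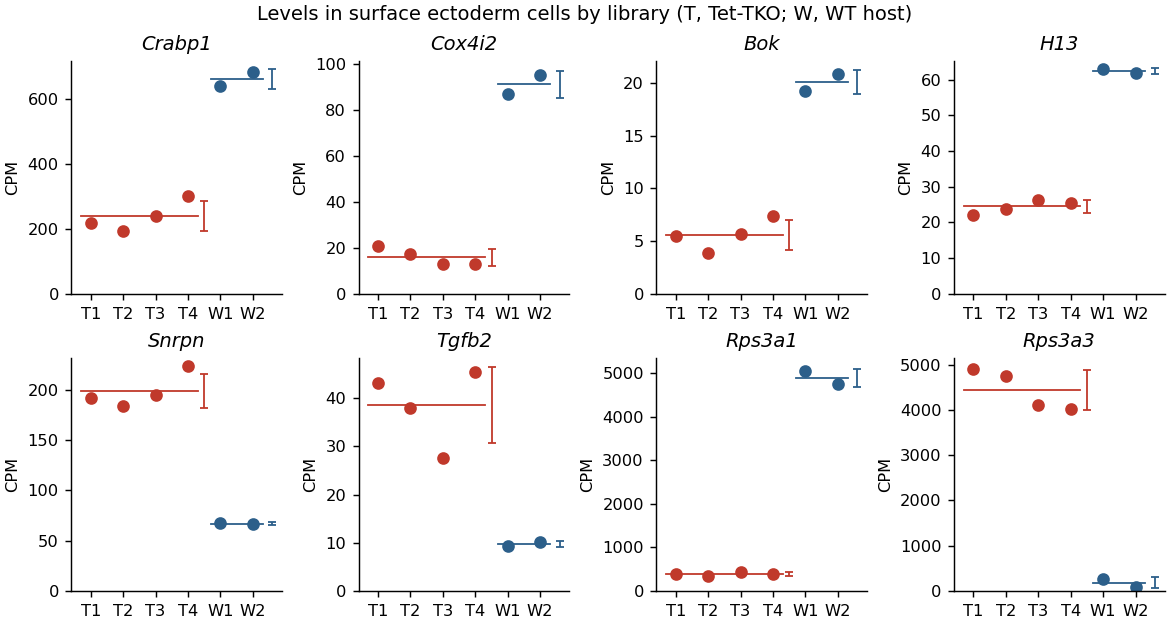
Levels in CPM of 8 genes in surface ectoderm by library (T1 to T4, Tet-TKO; W1 and W2, WT host), with the mean as a line and the SD as a bar beside each group. Crabp1, Cox4i2, Bok and H13 were lower in all Tet-TKO libraries, Snrpn and Tgfb2 higher, and Rps3a1 was lower and Rps3a3 higher.

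Of the 23 genes called higher, 11 are annotated as pseudogenes, and the share of pseudogenes among all genes tested was not counted. Rps3a3 is a processed pseudogene on chromosome 13 of Rps3a1, the ribosomal protein gene on chromosome 3. Rps3a3 was at 4903, 4750, 4117 and 4014 CPM in Tet-TKO and 269 and 97.4 CPM in WT host cells (log2 fold change 4.60, adjusted p = 0.00255), and Rps3a1 at 387, 345, 438 and 386 against 5045 and 4744 CPM (-3.65, adjusted p = 1.35e-06). The 2 together summed to 4400 to 5290 CPM in Tet-TKO and to 5314 and 4841 CPM in WT host cells, so that the sum overlapped between genotypes. With each Tet-TKO pair alone Rps3a3 was not called (adjusted p = 0.143 and 0.0655). In the annotation Rps3a3 is identical to the coding sequence of Rps3a1 at 786 of 795 bases (98.9%). Bases after the stop codon of Rps3a1, which counting at the 3′ end can also cover, were not compared. The latest stretch of 90 bases with the most mismatches, counted from the start codon of Rps3a1 as 706 to 795, is shown. The mismatches C762T and G792A are in capitals.
Rps3a1: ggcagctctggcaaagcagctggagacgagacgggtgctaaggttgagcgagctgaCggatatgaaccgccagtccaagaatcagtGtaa
Rps3a3: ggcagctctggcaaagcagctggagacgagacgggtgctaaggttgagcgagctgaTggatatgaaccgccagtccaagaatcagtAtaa
Rps13-ps1 (67.1 to 122 against 3.69 and 2.37 CPM) is likewise identical to Rps13 at 99.6% of 456 coding bases, and Rps15a-ps8, at 140 to 158 against 8.51 and 4.73 CPM, is identical to Rps15a at 357 of 387 aligned bases (92.2%). Which copy the UMIs of the closer pairs come from is uncertain, and Tet-TKO and WT host cells differ in strain as well as genotype.

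The other genes named as highest by fold were Gm10036 (4.84), Gm9825 (3.41), Eif3j2 (3.27), BC002163 (3.09), Hmga1b (2.89), Wdfy1 (2.58) and Sik2 (2.57 on the log2 scale), and the Tet-TKO range of each lay above the WT host range. Gm10036, Gm9825 and BC002163 are pseudogenes, and Eif3j2 and Hmga1b have a near-identical copy elsewhere in the genome, so their counts are uncertain too. The separation of libraries alone is common, since 22.7% of all genes tested had every Tet-TKO library outside the WT host range. Wdfy1, which takes part in endosomal signalling, was at 31.4 to 41.6 against 7.09 and 5.12 CPM (log2 fold change 3.46 with the rule applied at 5000 UMIs). Sik2, a salt-inducible kinase, was at 23.2 to 34.03 against 5.67 and 3.55 CPM. Wdfy1 and Sik2 each lost the call in some alternative, with log2 fold changes of 2.37 to 3.46 and of 2.06 to 3.01 over the alternatives. For neither did the difference from endoderm or neurectoderm pass (adjusted p = 0.822 or more for endoderm and 0.7998 or more for neurectoderm).

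Among the lower genes, 7 were at under 25% of the level of all cells of the same libraries in both genotypes, Ttr, Apoa1, Apob, Apom, Rbp4, Ctsh and Hbb-bs (Apob, Ctsh and Hbb-bs outside the naming rule and chosen after their values were seen). Most are products of yolk sac endoderm, and Hbb-bs encodes a globin. The share of all genes tested that lay under 25% in both genotypes was not counted. Ttr, the carrier of thyroid hormone, was at 1.71, 1.05, 0.379 and 1.95 CPM in Tet-TKO and 95.0 and 147 CPM in WT host surface ectoderm, where it reached 16.7% of the level of all WT host cells. Apoa1 was at 0.570 to 1.95 against 33.2 and 143 CPM, Apom at 0.190 to 0.702 against 21.8 and 55.6 CPM and Rbp4 at 1.05 to 1.73 against 40.6 and 147 CPM. Apoa1, Apom and Rbp4 were not called with either Tet-TKO pair alone. Ttr lost its call by edgeR without doublets (adjusted p = 0.0108) and with the rule applied at 10000 UMIs (0.0966). Apoa1 also lost it with any single Tet-TKO library left out (0.0229 to 0.0427), and Rbp4 without Tet-TKO library 1, 2 or 4 (0.0107 to 0.0135). Without cells that hold markers of other types the log2 fold changes of Ttr, Apoa1 and Apom, -6.52, -6.31 and -6.31, were -3.28, -3.25 and -3.57 and did not pass (adjusted p = 0.0170, 0.0160 and 0.0661), and Rbp4 did not pass the filter on low counts. The markers that removed cells there include Ttr and Apoa1 themselves, and erythroid and neurectoderm markers did not count. Ttr, Apoa1 and Apob are on the list of yolk sac endoderm markers whose sums are given above, and the part of RNA from outside the cells was not tested. Without them, and without haemoglobin, Xist, Y-linked genes and tdTomato, 22 genes were higher and 19 lower. Xist, which silences an X chromosome in female cells, was at 8.45 to 20.1 against 354 and 279 CPM, and the sex of the embryos behind the libraries is not given in the labels. Gm42047, a lincRNA, was at 0.380 to 1.08 against 25.0 and 21.7 CPM.

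No gene on the placode list passed over the 4 Tet-TKO libraries. Pax8 was at 0.380, 0.351, 2.47 and 3.90 CPM in Tet-TKO and 11.1 and 10.6 CPM in WT host cells, and every Tet-TKO library lay below both WT host libraries. Its log2 fold change of -2.54 ± 0.61 SE did not pass with 4 Tet-TKO libraries (adjusted p = 0.134) and passed with each pair alone, at -4.69 (adjusted p = 6.52e-09) and -1.83 (adjusted p = 0.000994), both against the same WT host libraries. Pax2 was at 4.18 to 9.30 against 9.36 and 8.28 CPM (-0.40, adjusted p = 0.723). Tbx1 and Ripply3 are not on the list. Tbx1, a regulator of pharyngeal and otic development, was at 3.61, 1.40, 5.12 and 7.59 against 21.8 and 12.2 CPM (-1.91, adjusted p = 0.113), and Ripply3, a repressor that works with Tbx1, at 5.51 to 9.54 against 32.0 and 16.2 CPM (-1.72, adjusted p = 0.0382). Foxi2 was at 0.570, 0.351, 3.79 and 6.50 against 5.96 and 13.8 CPM (-1.72, adjusted p = 0.476). These genes, all lower on average in Tet-TKO cells, were chosen after their values were seen. Isl1, also chosen so, went the other way, at 24.7 to 26.8 against 19.9 and 19.3 CPM (0.42, adjusted p = 0.391 by edgeR). The median log2 fold change of the placode list was -0.12. Of the 24 preplacodal and placode genes tested, 0 were called in either direction over the 4 libraries (edgeR), with 1 higher and 3 lower at an unadjusted p of 0.05 (5.22% and 5.47% of all genes), and each pair alone gave 0 higher and 2 lower (lower among all genes were 1.04% with libraries 1 and 2 and 1.97% with libraries 3 and 4). Sall4 was at 88.2 to 116 against 106 and 93.8 CPM and Irx3 at 55.5 to 81.3 against 86.2 and 74.5 CPM.

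The epidermal genes held no call over the 4 Tet-TKO libraries. Of 22 epidermal transcription factors, 0 passed in either direction by edgeR (1 higher and 0 lower at an unadjusted p of 0.05, median log2 fold change -0.07), and Id3 and Id1, targets of BMP signalling, were at 591 to 674 against 632 and 600 CPM and at 446 to 527 against 482 and 435 CPM. Of 29 keratin and junction genes 0 passed, with 6 higher and 2 lower at an unadjusted p of 0.05, beside 5.22% and 5.47% of all genes. Rab25, a GTPase of epithelial recycling, chosen after its values were seen, was at 50.5, 59.0, 52.2 and 47.9 against 106 and 83.6 CPM (-0.85, adjusted p = 0.0449), as was Jup, which encodes plakoglobin of the junctions, at 35.5, 28.4, 37.2 and 35.3 against 17.9 and 20.5 CPM (0.85, adjusted p = 0.0716). For both, all 4 Tet-TKO libraries lay outside the WT host range. Of the 3 basal keratins, chosen after their values were seen, 0 passed over the 4 libraries by edgeR, with 2 higher and 0 lower at an unadjusted p of 0.05. Krt5 was at 3.04, 1.41, 10.4 and 5.20 against 9.36 and 11.4 CPM and Krt15 at 8.74, 5.97, 10.2 and 16.9 against 4.54 and 1.58 CPM (adjusted p = 0.556 and 0.249). Krt14 was at 1.90, 3.16, 3.23 and 3.47 against 0.284 and 1.18 CPM (2.07 ± 0.64 SE, adjusted p = 0.279), higher than both WT host libraries in 4 of 4. With libraries 1 and 2 alone Krt5 was called lower (-1.99), and with libraries 3 and 4 alone Krt15 was called higher (1.98). These were the calls of the keratin and junction list in the pairs, and the epidermal transcription factors had 0 in either pair (edgeR). Over all genes 0.837% were called higher and 1.04% lower with libraries 1 and 2, and 2.27% and 1.97% with libraries 3 and 4.

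The signalling lists held no call over the 4 Tet-TKO libraries. The lists of BMP (17 genes tested), Wnt (36), FGF (20) and Notch (14) genes held no call in either direction by edgeR, with 0, 3, 1 and 2 genes higher and 1, 4, 1 and 2 lower at an unadjusted p of 0.05 and median log2 fold changes of 0.12, 0.02, 0.06 and 0.06. At that p 5.22% of all genes were higher and 5.47% lower. With libraries 1 and 2 alone the Wnt list had 1 higher and 2 lower genes, the FGF list 0 and 1, and the BMP and Notch lists 0, where 0.837% of all genes were higher and 1.04% lower. With libraries 3 and 4 alone the Wnt list had 0 higher and 5 lower genes, the FGF list 1 and 0, the Notch list 2 and 0, and the BMP list 0, where 2.27% of all genes were higher and 1.97% lower. Bambi, an inhibitor of BMP receptors, was at 141, 136, 58.4 and 93.8 against 97.3 and 82.0 CPM, and Bmpr1a, a BMP receptor, at 58.3 to 67.6 against 60.7 and 58.7 CPM. Wnt4 was at 71.9 to 81.9 against 77.7 and 61.5 CPM and the receptor Fzd2 at 107 to 184 against 115 and 142 CPM. The FGF receptor Fgfr1 (44.6 to 61.1 against 50.8 and 51.6 CPM) and its inhibitor Spred1 (43.9 to 67.4 against 50.5 and 59.9 CPM) overlapped between genotypes. Hes1, a target of Notch, was at 51.3 and 48.8 CPM in Tet-TKO libraries 1 and 2, 131 and 136 CPM in libraries 3 and 4 and 49.6 and 56.0 CPM in WT host cells, and was called higher with libraries 3 and 4 alone (1.30, adjusted p = 4.02e-07), and Hes6 was at 18.3 to 23.5 against 28.6 and 30.4 CPM (adjusted p = 0.369).

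Genes of alternative fates held no call over the 4 Tet-TKO libraries but some with single pairs. Of 15 neural plate genes, 0 passed (0 higher and 1 lower at an unadjusted p of 0.05, which 5.22% and 5.47% of all genes reached). Sox2 was at 38.6, 47.4, 36.6 and 27.5 against 61.8 and 56.0 CPM (-0.65, adjusted p = 0.341), below both WT host libraries in 4 of 4, and Cdh2 overlapped (16.5 to 28.1 against 19.6 and 29.96 CPM). Of 11 neural crest genes 0 passed (2 higher and 2 lower at an unadjusted p of 0.05); Twist1 was at 66.1, 55.8, 30.2 and 39.0 against 22.1 and 28.4 CPM (0.95, adjusted p = 0.375, and 1.38, adjusted p = 2.56e-09, with libraries 1 and 2 alone) and Sox9 at 24.7 to 55.7 against 49.3 and 57.2 CPM (-0.67). Of 23 matrix and mesenchymal genes 0 passed (2 and 1), and Vim was at 195, 184, 79.9 and 101 against 96.7 and 69.0 CPM, called higher with libraries 1 and 2 alone (1.24, adjusted p = 0.000602), and Col18a1 at 111 to 216 against 127 and 156 CPM. Of 27 Hox genes 0 passed (0 and 3), with Hoxc8 at 45.6 to 82.1 against 59.0 and 97.0 CPM and Hoxb2 at 48.8 to 88.9 against 65.2 and 57.9 CPM. With libraries 1 and 2 alone, 2 neural crest genes, 2 matrix genes and 3 Hox genes were higher and 1 neural crest gene was lower, beside 0.837% higher and 1.04% lower of all genes. With libraries 3 and 4 alone, 1 neural plate gene was higher, and 1 neural crest gene, 1 matrix gene and 2 Hox genes were lower, beside 2.27% higher and 1.97% lower of all genes.

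Germline and trophoblast genes, many of which are held silent by DNA methylation in the embryo, gave no call over the 4 Tet-TKO libraries. Of 29 germline genes listed, 5 passed the filter on low counts and 0 were called (0 at an unadjusted p of 0.05 in either direction, beside 5.22% higher and 5.47% lower of all genes), and Dppa3 was at 8.93, 12.3, 3.79 and 1.52 against 3.69 and 1.58 CPM, its higher values in libraries 1 and 2, with which alone it was called (1.94, adjusted p = 0.000317). Prdm1 was at 6.27 to 18.9 against 11.6 and 9.85 CPM. Of 12 pluripotency genes 0 were called (0 and 1, and 1 higher with libraries 1 and 2 alone), with Lin28a at 152 to 206 against 164 and 156 CPM and Tbx3 at 23.3 to 46.9 against 32.9 and 27.2 CPM. Of 14 trophoblast genes 0 were called (1 and 5, median log2 fold change -0.50), with 0 higher and 2 lower for libraries 1 and 2 alone and 1 higher and 4 lower for libraries 3 and 4 alone. The shares of all genes higher and lower were 0.837% and 1.04% with the first pair and 2.27% and 1.97% with the second. Elf5, a defining trophoblast gene chosen after its values were seen, was at 0.380, 0, 1.33 and 1.52 against 6.52 and 5.91 CPM (adjusted p = 0.0935, called lower with each pair alone), Apoe at 78.2 to 129 against 153 and 202 CPM, and Hand1, also an amnion gene, at 199, 158, 18.6 and 45.7 against 128 and 96.6 CPM. The other extraembryonic ectoderm markers did not all go the way of Elf5. Ascl2 was also lower in all Tet-TKO libraries (2.09 to 3.23 against 5.39 and 5.12 CPM). Rhox9 was higher in all of them (0.650 to 2.09 against 0.567 and 0 CPM), and Rhox6 and Wnt7b overlapped. The authors found no tdTomato+ cells in the trophoblast of these chimaeras, so trophoblast cells are present only in the WT host fraction. Whether their RNA or doublets enter these levels was not tested.

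Of 20 genes of the DNA methylation machinery 0 were called (0 and 2), and with libraries 1 and 2 alone 2 were lower, Tet1 and Tdg. Of all genes 5.22% were higher and 5.47% lower at an unadjusted p of 0.05, 0.837% and 1.04% were called with libraries 1 and 2 and 2.27% and 1.97% with libraries 3 and 4, and the counts of the lists here are read beside these shares. Trim28, a corepressor, was at 275 to 333 against 337 and 332 CPM and Mbd3 at 221 to 271 against 261 and 279 CPM. Tdg, the glycosylase that removes oxidised cytosines made by TET enzymes, was chosen after its values were seen and was at 37.1, 35.5, 50.1 and 75.6 against 81.1 and 98.5 CPM (-0.85, adjusted p = 0.253), below both WT host libraries in 4 of 4 but past the test in libraries 1 and 2 alone (-1.22, adjusted p = 3.63e-10). Of 20 S phase genes and 20 G2 and M phase genes 0 were called, and 0 at an unadjusted p of 0.05. Pcna was at 245 to 322 against 268 and 305 CPM, Slbp at 245 to 341 against 319 and 340 CPM, Birc5 at 296 to 421 against 376 and 368 CPM, and Ube2c at 549, 582, 369 and 298 against 614 and 554 CPM. Of 21 glycolysis and hypoxia genes 0 were called (0 and 3, and 3 lower with libraries 3 and 4 alone), with Gapdh at 3663 to 4311 against 4303 and 4029 CPM and Ldha at 3330, 3591, 2658 and 2383 against 3407 and 3573 CPM. Of 18 immediate early and heat shock genes 0 were called (3 and 0, median 0.32, and 1 and 3 higher with each pair alone), with Hsp90aa1 at 1748 to 2260 against 2011 and 1838 CPM and Hspa8 at 1399 to 2195 against 1666 and 1638 CPM.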

How the data were processed

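Counts were made by the authors from 10x 3′ libraries with Cell Ranger (3.1.0 per the file headers, another version in the methods), the mm10 genome and GRCm38.92 genes plus tdTomato, and were deposited as UMI counts, not normalised. The members and gene lists were chosen with earlier results of these data known.

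The barcode filter asked for 1500 UMIs or more, with mitochondrial genes giving no more than 30% and ribosomal protein genes no more than 35% of them. Counts were summed per library over the chosen cells and tested with edgeR 4.0.16 in R 4.3.3 (filterByExpr, TMM, robust quasi-likelihood fit, Benjamini-Hochberg over all genes tested). Differences from endoderm and neurectoderm cells were tested as an interaction, with library as a term. Shares were tested by an exact permutation test over libraries. Doublets stayed in, and cells scored highest by Scrublet (scanpy 1.11.5) were left out as an alternative, as were cells with other markers, single libraries and pairs, with DESeq2 1.42.0, no filter on low counts and other depths. Erythroid and neurectoderm markers did not count among these other markers. On simulated counts of this comparison, 50.5% of 200 genes with a log2 fold change of 1 (11349 genes) and 100% of 200 with 2 (11340 genes) were called. The changed genes were drawn from those at or above the median level, with dispersions taken from the trend. The simulation held no difference between the Tet-TKO pairs. These shares therefore do not hold for less abundant genes and may be too high for the real libraries. Binomial intervals cover counting error only.

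Named genes were, in each direction, up to 10 called genes of largest fold with every Tet-TKO library outside the WT host range and a mean of at least 20 CPM in a genotype (rule genes, tdTomato, Xist, Y-linked and haemoglobin genes left out), all called list genes, the 2 genes of each list with the highest mean CPM, the Tet genes, tdTomato and Xist, and the rule and label genes. Others are marked as chosen after their values were seen. Of 55422 features, 55240 had a position in GENCODE M21. Some genes are not reported here, and the label check, the regional groups, the gut endoderm markers and the endoderm population are given without them, the last changed from its planned definition for this reason after the data were seen.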

Additional observations from a re-analysis of the deposited data

Results flagged for a closer look

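Of 125 groups of 4 Tet-TKO libraries examined, 5 had a library far from the others, where chance gives about 1 in 20. BC002163 was at 32.3 CPM in library 3, Hmga1b at 32.9 CPM in library 4, Rbp4 at 1.73 CPM in library 4, Sox9 at 55.7 CPM in library 4 and Apob at 0.190 CPM in library 3.

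For 8 of the 117 named genes, the genotype difference in surface ectoderm differed from that in another population (edgeR interaction test, adjusted p under 0.01 with no minimum fold, which 1.62% of all genes passed for endoderm and 0.0305% for neurectoderm). Against endoderm the difference of log2 fold changes was -1.79 for Bok, -1.23 for Cdh2, 1.13 for Tbx3, -0.35 for Ldha, -0.86 for Zdbf2 and 1.19 for Jup. In Tet-TKO and WT host endoderm Cdh2 averaged 44.9 and 21.9 CPM, Tbx3 24.7 and 46.3 CPM, Ldha 2915 and 2611 CPM, Zdbf2 95.3 and 19.12 CPM, and Jup 23.6 and 28.6 CPM. Against neurectoderm it was 0.45 for Id3, at 519 and 684 CPM there, and 1.72 for Crip1. Many of the 117 genes were chosen after their values were seen, so that their share is not comparable with that of all genes. Yolk sac endoderm markers also differed between the genotypes in endoderm, as given above, and their part in these differences was not tested.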

How the results depend on the processing

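The difference in the share of surface ectoderm cells, -0.0582 percentage points, changed sign at 3000 UMIs (0.0117), at 10000 UMIs (0.00122, chosen after seeing the data) and on all UMIs (1.97), and lay between -0.105 and -0.00305 with each library left out. Counts of genes higher and lower, 23 and 27, were 40 and 59 with DESeq2, 79 and 127 without a filter on low counts, 14 and 12 with libraries 1 and 2 and libraries 3 and 4 summed, 12 and 14 with at least 3 of 4 marker genes, 12 and 7 with the rule applied at 10000 UMIs, 89 and 111 with Tet-TKO libraries 1 and 2 only and 257 and 223 with libraries 3 and 4 only (these 3 chosen after seeing the data). Lower genes were 15 with the rule applied at 5000 UMIs, where Tet-TKO libraries 3 and 4 held under 10 cells and were left out, and 15 without cells that hold markers of other types (erythroid and neurectoderm not counted). With each library left out, higher genes were 4 to 18 and lower genes 8 to 24, the lowest without either WT host library, where the lone WT host library is assumed to vary like the Tet-TKO libraries. Genes that differed from endoderm, 130, were 16 to 166, lowest without WT host library 1 and 53 without Tet-TKO library 2, and were 209 with 1 further gene in the definition of endoderm (the planned one), and those that differed from neurectoderm, 1, were 1 to 5. With the replicate block, 120 genes were higher and 168 lower. Whether same-numbered libraries share an embryo pool is not given in the labels, and the correlations of their deviations, 0.133 and -0.0659 over 2 pairs, do not settle it. Of the 34 named genes with a call, all kept their direction in every alternative that tested them, and 11 and 12 kept the call without WT host library 1 or 2. Of 77 named genes without a call, 48 changed sign in some alternative. The causes were not tested.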
